A study of Homo sapiens with 8 samples.

Results

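SNHG1, also known as the U22 host gene, is a noncoding RNA gene whose spliced exons encode no protein and whose introns carry box C/D snoRNAs. The 8 box C/D snoRNAs described here are SNORD22, SNORD25, SNORD26, SNORD27, SNORD28, SNORD29, SNORD30 and SNORD31. They were chosen by name, as the annotated box C/D snoRNAs of SNHG1, out of 298 box C/D snoRNA symbols considered in all. Every peak that carried 1 of these names was taken, on whichever reference it lay.

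The peaks come from miCLIP-sequencing of NOP2/NSUN1, a nucleolar methyltransferase that makes 5-methylcytosine in rRNA, in HEK293T cells (a line from human embryonic kidney). The cells were transfected with FLAG-tagged NOP2/NSUN1, either as the C459A mutant, in which a cysteine of the active site is changed so that the enzyme stays covalently linked to the RNA it methylates, or as the WT protein, and were collected after 40 h. Both proteins were expressed from a plasmid, no removal of the cells' own NOP2/NSUN1 is described, and no UV crosslinking was applied. Each construct had 2 IP libraries, pulled down through the FLAG tag, and 2 libraries of the size-matched input (SMInput), taken before the pull-down from the same region of the membrane. The labels call the replicates biological, and there were 8 libraries.

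A box C/D snoRNA is excised from an intron of its host and held by a set of core proteins that includes the 2′-O-methyltransferase fibrillarin. Box C, near the 5′ end, and box D, near the 3′ end, come together and bind these proteins. The bases just before box D, or before an internal copy of it called D′, pair with rRNA and place a methyl group on the ribose of the rRNA nucleotide that faces the fifth base before the box. SNORD25, SNORD26, SNORD27, SNORD28, SNORD29, SNORD30 and SNORD31 are known as methylation guides of this kind. SNORD22, or U22, is known instead, from frog oocytes, as a snoRNA needed to process the precursor of 18S rRNA.

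The host lies on the minus strand of chromosome 11 (hg38, chr11:62851978-62855953), and its main transcript has 11 exons and 10 introns. Each snoRNA sits alone in an intron, in the order SNORD25 in intron 1, SNORD26 in intron 2, SNORD27 in intron 3, SNORD28 in intron 4, SNORD29 in intron 6, SNORD30 in intron 7, SNORD31 in intron 8 and SNORD22 in intron 9. The distance between the snoRNA and the next exon was 69 to 97 bases for 7 of them and 210 bases for SNORD31. The snoRNAs that had a peak are shown first, since the sequences of both sets are compared below. They are read from hg38 in the sense of the RNA with U written as T, and capitals mark box C (the first run) and box D (the second run).

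SNORD28, chr11:62854621-62854695, minus strand: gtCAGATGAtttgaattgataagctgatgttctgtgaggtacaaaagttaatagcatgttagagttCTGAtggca

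SNORD27, chr11:62855012-62855083, minus strand: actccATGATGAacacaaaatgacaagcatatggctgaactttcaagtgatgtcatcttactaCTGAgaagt

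SNORD22, chr11:62852910-62853035, minus strand: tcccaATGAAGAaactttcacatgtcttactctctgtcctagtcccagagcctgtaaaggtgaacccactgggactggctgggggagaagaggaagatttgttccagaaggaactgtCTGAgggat

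SNORD26, chr11:62855292-62855366, minus strand: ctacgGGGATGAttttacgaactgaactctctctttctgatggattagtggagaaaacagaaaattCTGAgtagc

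The snoRNAs without a peak are given for the same comparison.

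SNORD25, chr11:62855564-62855632, minus strand: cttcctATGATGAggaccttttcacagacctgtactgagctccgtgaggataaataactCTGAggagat

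SNORD29, chr11:62853904-62853968, minus strand: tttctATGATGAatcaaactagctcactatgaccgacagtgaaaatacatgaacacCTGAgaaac

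SNORD30, chr11:62853663-62853732, minus strand: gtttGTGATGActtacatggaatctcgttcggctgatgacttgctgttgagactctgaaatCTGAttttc

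SNORD31, chr11:62853326-62853393, minus strand: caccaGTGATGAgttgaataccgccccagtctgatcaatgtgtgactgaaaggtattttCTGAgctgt

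The values are those of the authors' deposited lists of enriched peaks, 287 for C459A and 251 for WT. Each peak comes with its enrichment in the IP relative to SMInput, as a log2 fold change, and with an adjusted p-value. The authors' peak caller gave both of these, and the replicates enter a single value. There is therefore no spread between replicates, and the depth behind each value is unknown. Only peaks enriched by 2-fold or more, at an adjusted p below 0.05, are in the lists, so a snoRNA missing from a list did not pass there. That is not a test of C459A against WT, and no such test can be made from these lists.

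Peaks were listed for 4 of the 8 snoRNAs with C459A (SNORD22, SNORD26, SNORD27 and SNORD28) and for 2 of the 8 with WT (SNORD22 and SNORD26). Both lists thus held SNORD22 and SNORD26, only the C459A list held SNORD27 and SNORD28, and neither held SNORD25, SNORD29, SNORD30 or SNORD31. No snoRNA of SNHG1 was found in the WT list alone. Over all box C/D snoRNAs, 15 of the 62 symbols listed with C459A were absent from the WT list. In the WT list, 2 of 49 symbols were absent from the C459A list. Of all 298 box C/D snoRNA symbols, 20.8% had a listed peak with C459A and 16.4% with WT. The 4 of 8 and the 2 of 8 make shares of 50% (95% Wilson interval 21.5 to 78.5) and 25% (7.15 to 59.1). These intervals cover counting of the 8 snoRNAs only and treat them as independent draws. The 8 snoRNAs share a host, are the whole set chosen, and are part of the 298 symbols. The intervals therefore cannot decide whether SNHG1 stands above the background. Among the 290 symbols outside SNHG1, 20.0% had a listed peak with C459A and 16.2% with WT. The share of all symbols also depends on the background. Without the SNORD115 and SNORD116 families, which had no listed peak, it was 28.4% with C459A and 22.5% with WT.

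**Figure D1:**
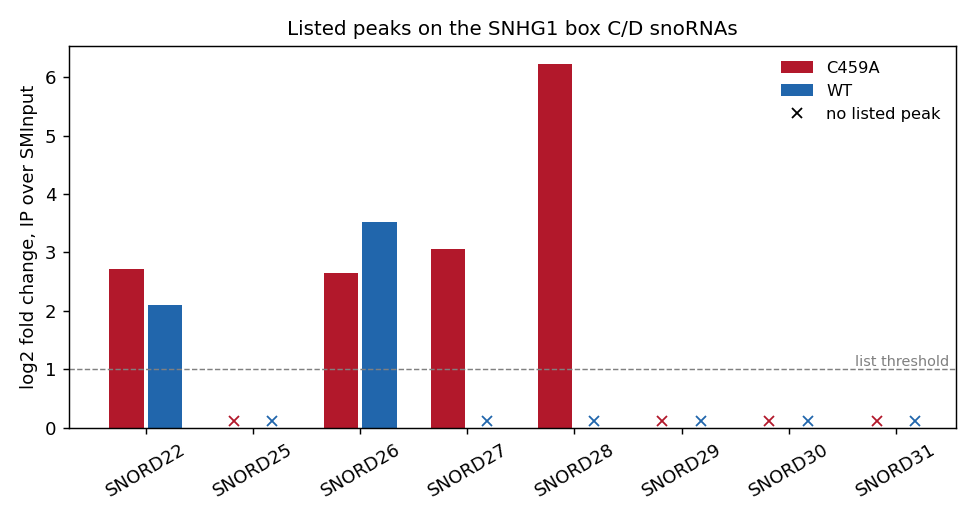
Log2 fold change of IP over SMInput of the listed peak on each of the 8 SNHG1 snoRNAs, with C459A (red) left of WT (blue); a cross marks a snoRNA without a listed peak, and the dashed line is the threshold of the lists. SNORD22 and SNORD26 have a bar for both constructs, and the bar of SNORD28 with C459A, 6.22, is the tallest of the 6.

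SNORD22, the snoRNA for which the host was first named, had a log2 fold change of 2.72 with C459A (the authors' adjusted p = 4.88e-10) and 2.10 with WT (the authors' adjusted p = 0.000857). These are 6.57-fold and 4.30-fold over SMInput. In both lists its peak spanned bases 1 to 126, the whole of the reference ENST00000384756.1. Its adjusted p was the 13th smallest of 70 box C/D snoRNA peaks with C459A and the 24th of 57 with WT. Its fold change stood far lower in order, at place 59 of 70 with C459A and 56 of 57 with WT. With C459A, SNORD22 thus paired a small adjusted p with a low fold change for a box C/D snoRNA, and with WT its adjusted p stood near the middle of the list.

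SNORD26, a guide to 28S rRNA, had a log2 fold change of 2.65 with C459A (the authors' adjusted p = 0.0211) and 3.52 with WT (the authors' adjusted p = 0.0105), or 6.27-fold and 11.5-fold. Both peaks covered bases 1 to 75 of ENST00000384147.1, again the whole RNA. Its adjusted p ranked 64 of 70 with C459A and 39 of 57 with WT, so by adjusted p SNORD26 lay closest of the listed members to the limit of the lists. SNORD26 and SNORD22 differed between the constructs in opposite directions. The log2 fold change of C459A minus that of WT was -0.88 for SNORD26 and 0.61 for SNORD22.

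These 2 differences can be set beside all 43 box C/D snoRNA transcripts with a peak in both lists. The log2 fold change was higher with C459A for 22 of the 43 and lower for 21, with a median difference of 0.05 and a range of -1.81 to 5.33. SNORD26 had the 5th lowest difference and SNORD22 stood at place 37 counted from the lowest. Both fell inside the range of the other snoRNAs. The lists carry no error for a fold change, so neither difference can be compared with replicate error. The adjusted p was smaller with C459A for 31 of the 43, SNORD22 among them, whereas that of SNORD26 was smaller with WT.

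SNORD27, a guide to 18S rRNA, had a peak with C459A only, over bases 1 to 72 of ENST00000363981.1, its whole length. The log2 fold change was 3.06, or 8.32-fold (the authors' adjusted p = 6.97e-06). In the C459A list 15 of 62 box C/D snoRNA symbols, with 16 peaks, were absent from the WT list. The peak of SNORD27 had the smallest adjusted p of the 16. The range of adjusted p over these 16 peaks reached 0.0423, with a median of 0.00829. In the other direction, 2 box C/D snoRNA symbols were in the WT list and not in the C459A list, and neither belonged to SNHG1.

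SNORD28, also a guide to 18S rRNA, had a peak with C459A only, and it differed from the other 3 in extent and in size. The log2 fold change was 6.22, which is 74.7-fold (the authors' adjusted p = 0.00468). This was the 6th largest of 70 box C/D snoRNA peaks and the 38th largest of all 287 peaks of the list, while the adjusted p ranked 49 of the 70. The peak ran from base 17 to base 75 of ENST00000384706.1, 78.7% of the RNA. Box C, at bases 3 to 9, lay outside the peak, and box D, at bases 67 to 70, lay inside it. Of 58 C459A peaks on box C/D snoRNA transcripts, 40 started at base 1 and 4 started after base 10, the peak of SNORD28 among these 4. The lists give regions and not single stops, so the base at which the reads ended was not analysed here.

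**Figure D2:**
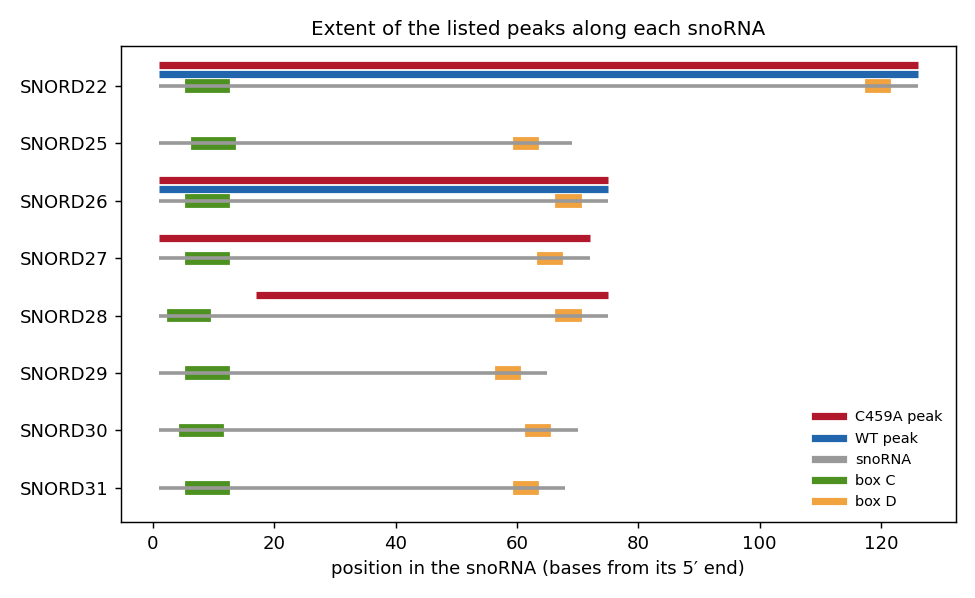
Listed peaks of C459A (red) and WT (blue) along each SNHG1 snoRNA, drawn to scale in bases from its 5′ end, with the RNA in grey, box C in green and box D in orange. The peaks on SNORD22, SNORD26 and SNORD27 cover the whole RNA, and the peak on SNORD28 starts at base 17, past box C.

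The order of the members by fold change differed from their order by adjusted p. With C459A, SNORD28 led by fold change and SNORD22 by adjusted p. The median log2 fold change of the SNHG1 snoRNA peaks was 2.89 with C459A (4 peaks) and 2.81 with WT (2 peaks), beside 3.80 and 4.11 for the other box C/D snoRNA peaks of the same lists. Over all peaks the medians were 3.63 with C459A and 3.44 with WT. Of the 4 C459A peaks, 3 were below the median of the box C/D snoRNA peaks and only that of SNORD28 was above it. With WT, both were below.

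The nearest neighbours in fold change show where these values fall. With C459A, SNORD28 at 6.22 on the log2 scale stood between a peak of SNORD3A at 6.25 and SNORD12, a methylation guide, at 6.14. SNORD3A is a copy of the U3 snoRNA that acts in the first cleavages of pre-rRNA. Its peak at 6.25 lay on chromosome 17, and its peak on the transcript reference, the kind SNORD28 was listed on, had 4.67. SNORD27 at 3.06 stood between SNORD53B at 3.10 and SNORD99 at 2.73. SNORD22 came just above SNORD88C at 2.70, and SNORD26 stood between SNORD83A, which also rounds to 2.65, and SNORD35A at 2.53. With WT, SNORD26 at 3.52 lay between SNORD11 at 3.74 and SNORD12 at 3.51. SNORD22 at 2.10 lay between SNORD33 at 2.11 and SNORD3D, another copy of U3, at 1.70, the lowest of the WT box C/D snoRNA peaks. SNORD12 had a log2 fold change close to a member's in both lists, beside SNORD28 with C459A and beside SNORD26 with WT.

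**Figure D3:**
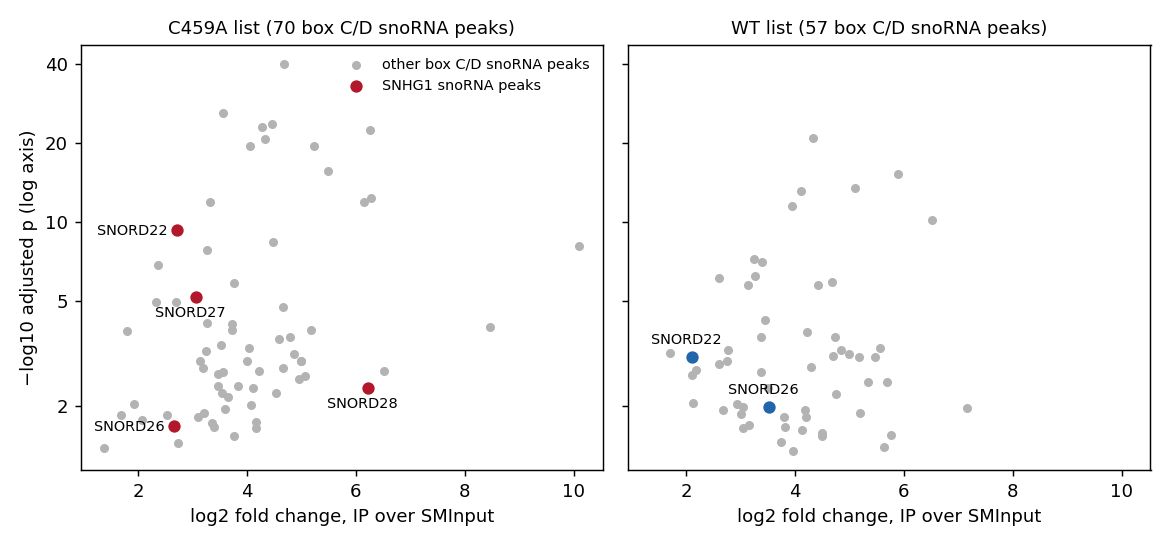
Every box C/D snoRNA peak of the C459A list (left) and the WT list (right), by log2 fold change of IP over SMInput (x axis) and −log10 of the authors' adjusted p on a log axis, with the SNHG1 snoRNA peaks coloured and named. SNORD22, SNORD26 and SNORD27 lie in the lower range of fold change in the C459A panel, and SNORD28 lies at 6.22.

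All 6 peaks lay on snoRNA transcript references and none on a chromosome. The deposited lists hold 5 peaks each on chromosome 11 for C459A and WT, none of them within SNHG1, and no peak carries the name of SNHG1 itself. Each of the 4 listed references has the same sequence as the stretch of the SNHG1 intron that holds the snoRNA. For reads within that stretch, the fold change cannot be divided between the excised snoRNA and the unspliced host. Copies elsewhere differ more. SNORD27 has a copy on chromosome 13 with 86.1% identity and SNORD28 has SNORD28B on chromosome 6 with 84.0%. A second gene named SNORD22, inside SNHG1 at chr11:62854161-62854285, has 65.4%. None of these copies had a listed peak. Between the 8 members, identity ran from 39.7% to 60.0% over 28 pairs, with a median of 53.0%.

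SNORD29 and SNORD31 need a separate remark. GENCODE release 44 has no transcript of either at SNHG1, so their places were taken from RefSeq, and whether the authors' references included them is not given in the sources used here. SNORD29 has a copy on chromosome 5 with 78.6% identity, and SNORD31 has SNORD31B on chromosome 13 with 85.9%, neither of them listed. SNORD47 of the GAS5 host, which likewise has no GENCODE transcript, was listed with C459A and with WT through a peak on chromosome 1. SNORD25 and SNORD30 have GENCODE transcripts and were absent from both lists all the same. A copy of SNORD30 on chromosome X, with 80.0% identity, was not listed either.

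The 4 members listed with either construct and the 4 in neither list differed in features that the choice of members did not use. The listed snoRNAs were 72 to 126 bases long (SNORD27 72, SNORD26 75, SNORD28 75 and SNORD22 126 bases) and the unlisted ones 65 to 70 bases, so the lengths did not overlap. Of the unlisted ones, SNORD29 and SNORD31 were placed by RefSeq, and whether the authors' references held them is not known. Over all 314 GENCODE box C/D snoRNA transcripts, 82.8% of the 58 listed with C459A and 81.2% of the 256 not listed with C459A had at least 72 bases. With WT these shares were 77.8% of 45 listed and 82.2% of 269 not listed. The separation by length within SNHG1 was therefore not seen over all box C/D snoRNAs. With WT alone it was absent within SNHG1 too, since SNORD28, unlisted there, is as long as SNORD26. GC content was 36% to 49.2% in the 4 listed members and 36.9% to 45.6% in the 4 unlisted ones, which overlapped.

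Box C also differed between the members listed with either construct and the 4 in neither list. Against the pattern of A or G followed by TGATGA, searched on the RNA strand from the first 12 bases, box C was exact in all 4 unlisted members. Among the listed ones it was exact in SNORD27 and had 1 mismatch in SNORD22 and in SNORD26 and 2 mismatches in SNORD28, as the capitals above show. Over all box C/D snoRNA transcripts an exact box C was found in 51.7% of the 58 listed with C459A and in 62.9% of the 256 not listed. With WT these shares were 55.6% of 45 and 61.7% of 269. With WT alone, SNORD28, with its 2 mismatches, was among the unlisted members. The 4 in neither list include SNORD29 and SNORD31, which the authors' references may not have held. A departure from the pattern is a description of letters, and whether it bears on the peaks was not tested.

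The share of listed snoRNAs varied widely between host genes. SNHG1, with 8 box C/D snoRNAs, had the 4th largest number of 13 hosts with at least 4. SNHG14, MEG8 and GAS5 had more. None of the 84 of SNHG14 or of the 41 of MEG8, which are mainly the imprinted snoRNA clusters, was listed with C459A or WT. GAS5, a noncoding host of rRNA methylation guides like SNHG1, had 1 of 10 (10%) listed with C459A and likewise with WT, namely SNORD47. SNHG1 had 4 of 8 (50%) with C459A and 2 of 8 (25%) with WT. A share at least as large as that of SNHG1 was found in 6 other hosts with C459A and in 7 with WT. All 4 snoRNAs of RPL13A and all 4 of RPL4 were listed with both constructs. These hosts, named after their values were seen, are ribosomal protein genes.

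**Figure D4:**
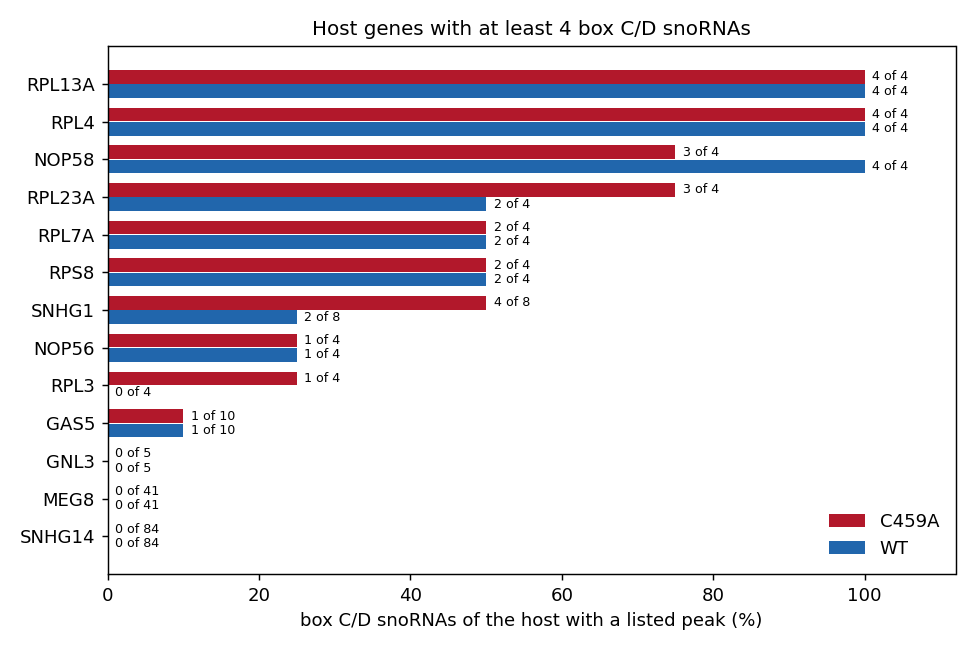
Percent of the box C/D snoRNAs of each host gene that had a listed peak, with C459A (red) above WT (blue), for the 13 hosts with at least 4 such snoRNAs; the count stands beside each bar. SNHG1, with 4 of 8 and 2 of 8, lies between RPL13A and RPL4 with all 4 listed and GAS5 with 1 of 10.

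The guide sequences of the members were compared with rRNA to see whether the bases they face lay in rRNA regions that also had a peak. A guide was taken as an unbroken Watson-Crick duplex of at least 9 pairs just before box D or D′ (CTGA on the RNA strand, with 1 mismatch allowed for D′). Duplexes of 12 or more pairs were found for 5 of the 8 members, SNORD25, SNORD26, SNORD27, SNORD30 and SNORD31, in each case before D′. By a like search, with the last CTGA as box D and on RNA45SN1 only, 20.3% of 296 box C/D snoRNA transcripts had one. At 9 pairs or more, the definition used here, the same 5 members had a duplex, as did 54.4% of the 296. The SNORD115 and SNORD116 families were not removed from this background. SNORD22, SNORD28 and SNORD29 had no duplex of 9 pairs.

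The bases faced are given by number from the 5′ end of the rRNA of RNA45SN1, a 45S copy on chromosome 21. SNORD25 faced base 1490 of 18S (a G) through 12 pairs, and SNORD26 faced base 398 of 28S (an A) through 13 pairs. SNORD30 faced base 3822 of 28S (an A) and SNORD31 base 4193 of 28S (a G), each through 12 pairs. SNORD27 faced base 27 of 18S (an A) through 12 pairs, and SNORD31 also faced base 82 of 5.8S (an A) through 12 pairs before a second CTGA. That stretch of SNORD31, its bases 32 to 43, takes in part of the CTGA at base 31 that served as D′ for its 28S site. The 5.8S duplex therefore cannot form while that CTGA acts as a box. For SNORD28, a duplex of 15 pairs before box D that faces base 1391 of 18S (a C) appeared once up to 3 G:U pairs were allowed. The rRNA sites of the duplexes that fell within a peak are printed here 5′ to 3′ from hg38, with the faced base in capitals.

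18S, bases 24 to 35, paired by SNORD27: catAtgcttgtc

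5.8S, bases 80 to 91, paired by SNORD31: acAcattgatca

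The site of SNORD27, close to the 5′ end of 18S, lay in a listed peak of the 45S precursor with both constructs. With C459A the peak covered bases 3301 to 3758 of RNA45SN1, at a log2 value of 3.42 for IP over SMInput (the authors' adjusted p = 2.49e-31). With WT it covered bases 3306 to 3748, at a log2 value of 4.06 (the authors' adjusted p = 2.57e-18). These peaks span the junction of the 5′ external spacer and 18S, which begins at base 3655. The same held on RNA45SN2, where the log2 fold change was 2.55 with C459A and 3.27 with WT. On RNA45SN3 and RNA45SN4 the site was in no listed peak. SNORD27 itself had a peak with C459A only, while the rRNA region with its site was listed with both constructs.

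The 5.8S site of SNORD31, whose guide overlaps the D′ box of its 28S site, also lay in 45S peaks, on RNA45SN1, RNA45SN2 and RNA45SN4. The log2 fold changes were 1.07, 1.24 and 1.60 with C459A and 1.42, 1.79 and 2.12 with WT, in that order of copies. SNORD31 had no peak of its own in either list. The sites of SNORD25, SNORD26 and SNORD30, and the 28S site of SNORD31, lay in no listed peak on the 45S or 28S references. On the 28S references the nearest peak to the 28S site of SNORD26 was 153 to 2795 bases away with C459A and 148 to 2748 bases away with WT over the 4 copies. For the 28S site of SNORD31 these distances were 58 to 762 bases with C459A and 455 to 760 with WT. For that of SNORD30 they were 235 to 391 bases with C459A and 216 to 389 with WT. A read can fit more than 1 of the near-identical 45S copies, and peaks on several copies may therefore hold the same reads. The share of rRNA bases inside listed peaks was not worked out, so the sites in a peak cannot be set against a background. Pairing is read from letters alone, and neither pairing nor methylation was measured in these libraries.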

How the data were processed

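miCLIP-sequencing was carried out on 2 IP and 2 SMInput libraries of each construct. According to the methods and the submitters' processing notes, the authors used CutAdapt for adaptors, fastp for the UMI, alignment to hg38 plus repetitive element families, and Peakachu for peaks, which they annotated by hand. Their versions are not stated there. The authors deposited, for each peak, the enrichment of IP relative to SMInput as a log2 value and the −log10 of its adjusted p-value, from which the adjusted p-value was recomputed. The lists hold no read counts, so depth and precision are unknown, and 0 other per-sample columns were present.

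Places and sequences come from hg38, GENCODE release 44 and, for SNORD29, SNORD31, the rRNAs and some snoRNAs of other hosts, RefSeq (GRCh38.p14). The background of 298 symbols joins the gene name table (296 SNORD symbols), the listed symbols and the members. A host is a named protein-coding or lncRNA gene that holds a SNORD gene, on the same strand where GENCODE places that SNORD gene. For snoRNAs placed by RefSeq only, the strand was not checked. Where several genes held a snoRNA, the gene with the most SNORD genes was taken. The guide search took in at most 22 bases before a box. It was tested on simulated data with guides planted before box D only, so the search before D′ was not tested in this way. No test was run, since the lists pool the replicates and hold enriched peaks only. The alternatives were stricter thresholds, subsets of references, other backgrounds, other duplex lengths and a smaller host size. The G:U pairs, the 45S copies of the genome assembly and the RefSeq background were added after seeing the data.

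The named RNAs are the 8 members, SNHG1, the snoRNAs of the 3 other hosts with the most SNORD genes, the neighbours of each member peak in fold change, and rRNA peaks that hold a guide site. RPL13A and RPL4 fall outside this rule. The members and lists were chosen with earlier results of these data known, and a supplementary table with the same peaks had been read. The software was pandas 2.3.3, numpy 2.4.6, scipy 1.17.1 and matplotlib 3.10.9 under python 3.11.15.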

Additional observations from a re-analysis of the deposited data

How the results depend on the processing

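With an adjusted p below 0.01, SNORD26 dropped out of both lists. The members listed were then 3 with C459A, 1 with WT and 1 in both lists, with 1 overlapping peak, and their median log2 fold change was 3.06 with C459A and 2.10 with WT. The share of all box C/D snoRNA symbols with a peak became 16.1% with C459A and 12.1% with WT. A fold change of at least 4 removed no member. On chromosomes only, 0 members were listed with C459A, with WT or in both, and peaks added by position at SNHG1 changed no count. Without the SNORD115 and SNORD116 families, which had no listed peak, 28.4% of symbols had a peak with C459A and 22.5% with WT. With hosts of at least 3 SNORD genes, 21 in all, 11 other hosts reached the share of SNHG1 with C459A and 11 with WT. With at least 4, these were 6 and 7 among 13 hosts. On the 28S references alone 0 members had a guide site in a peak with C459A and 0 with WT. With G:U pairs allowed 4 members had one with WT and 2 with C459A. The share of rRNA bases inside peaks, which would be the background for these counts, was not worked out. The 2 added with WT were other sites than those described above, SNORD28 at base 2820 and SNORD30 at base 2949 of 28S, each with 12 pairs of which 3 were G:U, while base 1391 of 18S and base 3822 of 28S lay in no listed peak. Of the 40 values, 17 moved and 23 stayed the same or within their limits. For counts the limit was a fixed ratio, under which the fall from 4 to 3 members with C459A counted as the same. For the share of all symbols it was the 95% Wilson interval. Leaving out a replicate could not be done, because each value holds both replicates. No paired analysis was possible because the lists pool the replicates. Depth is unknown, so absence from a list cannot be read as absence of binding.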
